A study of Homo sapiens with 24 samples.

Results

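Transcripts of 8 genes of cholesterol supply were followed in 24 RNA-seq libraries of 2 human cancer cell lines. The genes were HMGCS1, IDI1, MVD, FDFT1, SQLE, LSS, DHCR7 and INSIG1, which are known targets of the transcription factor SREBP2. They were taken by gene symbol from a table of 28307 genes, and each symbol had 1 row. SUM159 is a breast cancer line and SW620 a colon cancer line. Both were exposed as adherent cultures for 30 h to nifuroxazide (NIF), a nitrofuran antibiotic, or to the vehicle DMSO. After the exposure, cells with high aldehyde dehydrogenase activity (ALDHbr, the population that the study treats as cancer stem cells) were sorted from cells without it (ALDHneg). The 8 groups of line, population and treatment had 3 libraries each, from independent experiments. None of the labels gives either line a genetic change made for the study, and each line stands for 1 tumor type.

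Animal cells make cholesterol from acetyl-CoA. The mevalonate arm gives isoprenoid units, which are joined to squalene and then closed and trimmed to the sterol. SREBP2 is held in the endoplasmic reticulum by INSIG proteins while sterol is plentiful. When sterol falls, the factor SCAP carries it to the Golgi, where proteases release the part that enters the nucleus and raises the genes of synthesis and uptake. Tumor cells use the same route for membranes and for the lipid groups attached to small GTPases.

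SREBP2 is known to act on sterol regulatory elements beside sites for NF-Y, which reads CCAAT, and for Sp1, which reads GGGCGG. The promoters of 3 members are shown because they stand for both behaviours described here: INSIG1 fell in all 4 comparisons of NIF with DMSO, and HMGCS1 and MVD in the SW620 comparisons. Each line below gives the 250 bases before the annotated start from RefSeq on GRCh38.p14, 5′ to 3′ along the gene, with matches to CACNCCAC (a core of the sterol regulatory element) or CCAAT on either strand in capitals. The INSIG1 window lies at chr7:155297628-155297877 on the plus strand, the HMGCS1 window at chr5:43313413-43313662 on the minus strand and the MVD window at chr16:88663092-88663341 on the minus strand.
INSIG1: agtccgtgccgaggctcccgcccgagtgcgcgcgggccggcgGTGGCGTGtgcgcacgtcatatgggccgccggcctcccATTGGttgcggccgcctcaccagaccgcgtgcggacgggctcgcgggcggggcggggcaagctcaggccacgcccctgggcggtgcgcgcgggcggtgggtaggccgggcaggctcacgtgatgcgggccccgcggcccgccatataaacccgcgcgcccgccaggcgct
HMGCS1: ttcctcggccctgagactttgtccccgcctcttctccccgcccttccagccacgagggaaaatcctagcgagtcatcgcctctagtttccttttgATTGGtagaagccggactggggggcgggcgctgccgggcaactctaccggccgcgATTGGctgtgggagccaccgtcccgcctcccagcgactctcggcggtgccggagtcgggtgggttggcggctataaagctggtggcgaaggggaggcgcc
MVD: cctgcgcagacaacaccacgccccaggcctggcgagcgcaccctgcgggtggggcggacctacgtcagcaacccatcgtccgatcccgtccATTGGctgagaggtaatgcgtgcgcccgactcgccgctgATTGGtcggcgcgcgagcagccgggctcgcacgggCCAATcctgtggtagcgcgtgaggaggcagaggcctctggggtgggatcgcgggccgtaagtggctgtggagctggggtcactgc

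In the INSIG1 promoter the CACNCCAC match began 208 bases before the start and the CCAAT match 170 bases before it. The printed HMGCS1 window had CCAAT matches 155 and 100 bases before the start, and the other HMGCS1 window, not printed, had no CCAAT match. In MVD there were 3, at 159, 120 and 85 bases. The capital matches in the printed windows did not overlap. Over windows of 300 bases (250 before and 50 after each annotated start), 6 of the 8 members had an entry, and SQLE and FDFT1 did not. CCAAT was found for 6 of these 6, against 39.7% of all 27305 genes with a window. GGGCGG was also found for 6 of 6, against 48.3% of genes, and CACNCCAC for 2 of 6 (IDI1 and INSIG1), against 7.05%. A gene can have several windows, and the 6 members had 10, against 35116 for the 27305 genes. By window, CCAAT was found in 7 of 10, against 34.6% of all windows. GGGCGG was found in 9 of 10, against 45.0%, and CACNCCAC in 2 of 10, against 5.87%. These are matches of letters, no binding was measured, and the motifs were not compared with the responses to NIF.

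The libraries held 30253187 to 43127948 counts (median 36520935), and all 8 members passed the filter on low counts in both lines. The line labels were checked with 10 mesenchymal and 10 colon epithelial markers. The mesenchymal markers summed to 9200 to 13399 CPM (counts scaled to the effective library size) in SUM159 and 404 to 669 in SW620, and the colon epithelial markers to 216 to 376 in SUM159 and 9482 to 11830 in SW620. Single markers separated the lines less fully. A mean above 1 CPM was found for 10 mesenchymal markers in SUM159 and 4 in SW620, and for 2 and 8 colon epithelial markers. ALDH1A1, an enzyme that the sort can read, stood at 135 ± 27.7 CPM (SD, n = 3) in SUM159 ALDHbr DMSO cells against 0.480 ± 0.0618 in ALDHneg cells. In SW620 it stood at 1314 ± 51.3 against 901 ± 19.3 CPM, so both sorted populations of that line carried the transcript. ALDH1A3, also listed for the sort, went the other way in SW620, at 138 ± 5.35 CPM in ALDHbr against 177 ± 4.66 in ALDHneg DMSO cells. The log2 difference was -0.36 ± 0.0540 (SE) by edgeR (adjusted p = 7.23e-04). In SUM159 ALDH1A3 was scarce and higher in ALDHbr cells, at 0.620 ± 0.233 against 0.202 ± 0.0655 CPM (edgeR adjusted p = 0.0158). Replicates 1 and 2 of SW620 ALDHbr DMSO weighed on the comparison of the SW620 populations. Leaving out replicate 2 took the calls over all genes from 1577 to 5487, and leaving out replicate 1 took them to 712.

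The first question was what NIF did to these genes in SW620. All 8 were lower under NIF in ALDHbr and in ALDHneg cells, and in both populations every NIF library lay below every DMSO library for each gene. Log2 fold changes ran from -1.02 to -0.66 in ALDHbr cells (median -0.87) and from -1.17 to -0.64 in ALDHneg cells (median -0.98), while the median over all genes tested was -0.01 in both. A gene is called here when the adjusted p of edgeR's quasi-likelihood test is under 0.05. Of all genes tested, 21.9% were called lower in ALDHbr cells and 22.7% in ALDHneg cells, and 22.5% and 32% had every NIF library below every DMSO library. The 8 transcripts together made up 0.175% ± 0.00132 (SD, n = 3) of counts in ALDHbr DMSO cells and 0.0911% ± 0.000748 under NIF. In ALDHneg cells they went from 0.163% ± 0.00125 to 0.0769% ± 0.00179. Fewer cells expressing a gene and less RNA per cell cannot be told apart in such libraries.

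**Figure D1:**
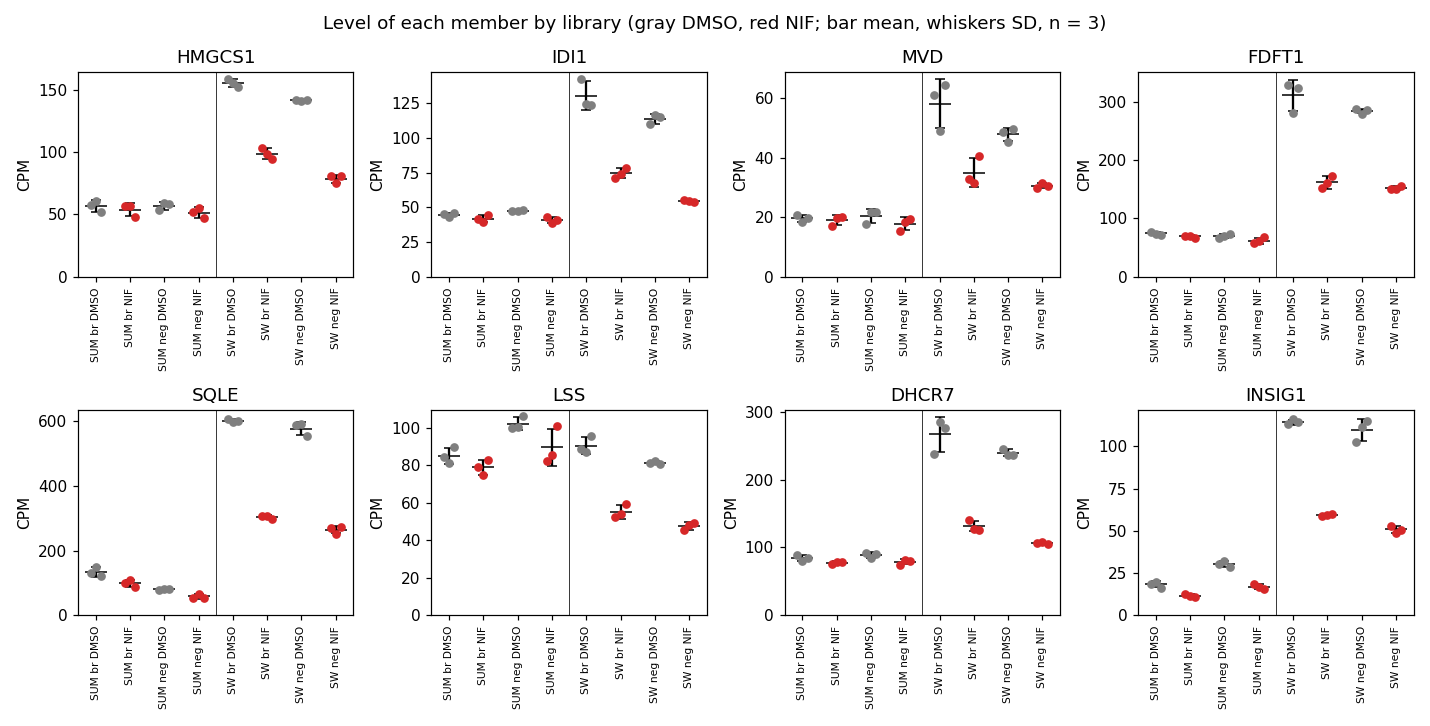
Level of each member in every library, in CPM on a linear axis from 0, for the 8 groups (SUM and SW for the lines, br and neg for ALDHbr and ALDHneg). Gray points are DMSO and red points NIF libraries, bars the mean and whiskers the SD of 3 libraries. In SW620 the red points lie below the gray points of the same population in all 8 panels.

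The mevalonate arm is represented by HMGCS1, IDI1 and MVD. HMGCS1 (chr5:43287470-43313412), the cytosolic synthase that joins acetyl-CoA to acetoacetyl-CoA, stood at 159, 155 and 152 CPM in SW620 ALDHbr DMSO libraries and at 103, 98.7 and 94.5 CPM under NIF. In ALDHneg cells the values were 142, 141 and 142 CPM with DMSO and 80.6, 74.8 and 80.4 CPM with NIF. The DMSO libraries of each population lay close together and far above the NIF libraries. The log2 fold change was -0.66 ± 0.0502 (SE) in ALDHbr cells (adjusted p = 1.70e-07) and -0.85 ± 0.0504 (SE) in ALDHneg cells (adjusted p = 1.11e-08). HMGCS1 fell by 36.5% in the first and fell by 44.4% in the second.

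IDI1 (chr10:1039152-1056704), which interconverts the isoprenoid units isopentenyl and dimethylallyl diphosphate, was at 142, 125 and 124 CPM in SW620 ALDHbr cells with DMSO and at 71.2, 74.3 and 78.2 CPM with NIF. For ALDHneg cells the libraries gave 109.9, 117 and 115 CPM with DMSO against 55.4, 54.8 and 54.1 CPM with NIF. Replicate 1 was the highest of the ALDHbr DMSO libraries. IDI1 fell by 0.81 on the log2 scale in ALDHbr cells (SE 0.0611, adjusted p = 1.52e-07) and by 1.05 in ALDHneg cells (SE 0.0616, adjusted p = 9.00e-09).

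MVD (chr16:88651940-88663091), the decarboxylase that completes isopentenyl diphosphate, had the widest spread of the members relative to its mean in SW620 ALDHbr cells. Its coefficient of variation was 13.9% with DMSO and 14.1% with NIF. On the CPM scale FDFT1 and DHCR7 spread more with both treatments, IDI1 with DMSO only and SQLE with NIF only. For MVD the DMSO libraries gave 61.1, 49.0 and 64.4 CPM and the NIF libraries 33.0, 31.4 and 40.6 CPM. ALDHneg libraries gave 48.6, 45.2 and 49.6 CPM with DMSO and 29.8, 31.5 and 30.6 CPM with NIF. The groups did not overlap in either population, with log2 fold changes of -0.74 ± 0.104 (SE) (adjusted p = 6.04e-05) and -0.64 ± 0.104 (SE) (adjusted p = 1.71e-04).

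Squalene and sterol formation is represented by FDFT1, SQLE, LSS and DHCR7. FDFT1 (chr8:11795582-11839298), the squalene synthase that commits the route to sterols, stood at 328, 281 and 324 CPM in SW620 ALDHbr cells with DMSO and at 151, 161 and 173 CPM with NIF. The ALDHneg libraries held 287, 279 and 285 CPM with DMSO and 149.7, 150.3 and 156 CPM with NIF. FDFT1 fell by 47.9% in ALDHbr cells and fell by 46.4% in ALDHneg cells. The log2 fold changes were -0.94 ± 0.0648 (SE) (adjusted p = 5.92e-08) and -0.90 ± 0.0647 (SE) (adjusted p = 7.33e-08).

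SQLE (chr8:124998505-125022283), the squalene epoxidase that is a control point of the sterol arm, was the most abundant member per transcript length. ALDHbr DMSO libraries of SW620 gave 607, 597 and 602 CPM and NIF libraries 307, 308 and 298 CPM. ALDHneg DMSO libraries gave 589, 591 and 554 CPM and NIF libraries 269, 253 and 273 CPM. The treatments were far apart compared with the replicates, and the log2 fold changes were -0.98 ± 0.0474 (SE) (adjusted p = 1.65e-09) and -1.12 ± 0.0475 (SE) (adjusted p = 3.28e-10).

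LSS (chr21:46188446-46228774), the cyclase that folds squalene epoxide into lanosterol, was at 88.5, 87.3 and 95.5 CPM with DMSO and 52.1, 54.1 and 59.3 CPM with NIF in ALDHbr cells of SW620. In ALDHneg cells it was at 81.4, 82.0 and 80.8 CPM with DMSO and 45.2, 48.0 and 49.2 CPM with NIF. LSS fell by 0.71 on the log2 scale in the first (SE 0.0603, adjusted p = 4.58e-07) and by 0.78 in the second (SE 0.0604, adjusted p = 1.55e-07).

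DHCR7 (chr11:71427287-71449043), the reductase of the last step to cholesterol, had the lowest log2 fold changes of the members, and in both populations these differed from those of SQLE by less than the sum of the SEs. Its ALDHbr libraries gave 238, 286 and 277 CPM with DMSO and 141, 128 and 126 CPM with NIF. Its ALDHneg libraries gave 246, 237 and 237 CPM with DMSO and 106, 108 and 105 CPM with NIF. The level fell by 50.7% (log2 -1.02 ± 0.0668 (SE), adjusted p = 3.62e-08) and fell by 55.7% (log2 -1.17 ± 0.0670 (SE), adjusted p = 7.15e-09).

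INSIG1 (chr7:155297878-155310235) is no enzyme: it holds the SREBP and SCAP complex in the endoplasmic reticulum and is itself a target of SREBP2. SW620 ALDHbr cells had 113, 116 and 114 CPM with DMSO and 58.5, 59.6 and 59.9 CPM with NIF. ALDHneg cells had 103, 111 and 115 CPM with DMSO and 53.0, 48.6 and 50.7 CPM with NIF. The groups were well apart, at -0.95 ± 0.0547 (SE) on the log2 scale in ALDHbr cells (adjusted p = 9.94e-09) and -1.11 ± 0.0549 (SE) in ALDHneg cells (adjusted p = 1.63e-09).

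The response to NIF was then examined in SUM159. INSIG1 and SQLE were called lower in both populations, and the other 6 members in neither. Of all genes tested, 2.23% were called lower in ALDHbr cells and 2.2% in ALDHneg cells. All 8 log2 fold changes were below 0 in each population, with medians of -0.11 in ALDHbr and -0.20 in ALDHneg cells. The groups did not overlap for 4 of 8 members in ALDHbr cells (FDFT1, SQLE, DHCR7 and INSIG1), beside 12.2% of all genes with every NIF library below every DMSO library. In ALDHneg cells they did not overlap for 4 of 8 (IDI1, SQLE, DHCR7 and INSIG1), beside 10.1% of all genes. The 8 transcripts together took 0.0512% ± 0.000888 of counts in ALDHbr cells with DMSO and 0.0444% ± 0.000471 with NIF. In ALDHneg cells the share went from 0.0501% ± 0.00151 to 0.0419% ± 0.00104 (SD, n = 3).

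INSIG1 in SUM159 ALDHbr cells stood at 18.5, 19.8 and 16.3 CPM with DMSO and at 12.4, 11.3 and 10.8 CPM with NIF. In ALDHneg cells it stood at 30.5, 32.3 and 28.6 CPM with DMSO and 18.4, 16.6 and 15.4 CPM with NIF. Every NIF library was below every DMSO library of its population, and the log2 fold changes were -0.66 ± 0.0971 (SE) (adjusted p = 0.00144) and -0.86 ± 0.0936 (SE) (adjusted p = 1.42e-04). INSIG1 kept its call without any 1 library of the groups compared.

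SQLE in SUM159 ALDHbr cells was at 129.5, 149.5 and 122 CPM with DMSO and 97.8, 109 and 87.2 CPM with NIF. In ALDHneg cells the values were 79.0, 80.4 and 79.3 CPM with DMSO and 54.1, 65.5 and 54.1 CPM with NIF. The groups did not overlap, and SQLE fell by 26.6% in ALDHbr cells (log2 -0.45 ± 0.0943 (SE), adjusted p = 0.0171) and fell by 27.3% in ALDHneg cells (log2 -0.46 ± 0.0958 (SE), adjusted p = 0.0171). The fold stayed between -0.52 and -0.36 in ALDHbr and between -0.55 and -0.41 in ALDHneg cells with any 1 library of the groups left out, but the call was lost in some of these fits, which had no replicate block. Without ALDHbr DMSO replicate 1 or 2 or ALDHbr NIF replicate 1 or 3 the adjusted p was 0.0508 to 0.0744. Without ALDHneg DMSO replicate 1 or ALDHneg NIF replicate 1 or 3 it was 0.0569 to 0.0906. With the replicate block and all libraries, the adjusted p of SQLE was 7.38e-06 and 7.04e-06, and the NIF library was the lower in 3 of 3 experiments in both populations.

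The other 6 members had smaller differences than these in SUM159. HMGCS1 had 57.3, 60.8 and 51.6 CPM with DMSO and 56.4, 56.9 and 48.0 CPM with NIF in ALDHbr cells, where the interval of the log2 fold change was -0.26 to 0.11. In ALDHneg cells it had 53.3, 58.9 and 58.0 CPM and 52.3, 55.4 and 46.8 CPM (interval -0.32 to 0.04). For this gene the libraries of both treatments overlapped, and each NIF library was below the DMSO library of the same number. MVD gave 20.8, 18.4 and 19.7 CPM with DMSO and 17.1, 19.9 and 20.2 CPM with NIF in ALDHbr cells (interval -0.27 to 0.19), and was lower under NIF in 1 of 3 experiments. In ALDHneg cells MVD gave 17.8, 21.7 and 21.7 CPM and 15.3, 18.5 and 19.5 CPM, lower in 3 of 3 experiments (interval -0.43 to 0.03). These intervals are at the 95% level.

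IDI1 read 44.9, 43.3 and 45.6 CPM with DMSO and 41.5, 39.4 and 44.2 CPM with NIF in ALDHbr cells of SUM159. Its ALDHneg values were 47.4, 47.5 and 47.8 CPM and 43.2, 38.8 and 40.9 CPM, without overlap, at -0.21 ± 0.0629 (SE) on the log2 scale (adjusted p = 0.0796). LSS read 84.4, 81.1 and 89.7 CPM and 79.1, 74.6 and 82.7 CPM in ALDHbr cells. Its ALDHneg values of 99.8, 100.3 and 106 CPM and 82.2, 85.6 and 101 CPM overlapped, since NIF replicate 3 reached the DMSO level (log2 -0.19 ± 0.0743 (SE), adjusted p = 0.195). FDFT1 read 77.5, 73.5 and 71.6 CPM and 70.7, 70.1 and 66.7 CPM in ALDHbr cells, and 65.7, 69.4 and 73.8 CPM and 57.2, 60.6 and 67.3 CPM in ALDHneg cells (adjusted p = 0.500 and 0.195). DHCR7 did not overlap in either population, at 88.9, 79.8 and 84.0 CPM against 75.4, 78.3 and 79.0 CPM in ALDHbr and 91.8, 84.1 and 89.8 CPM against 74.6, 81.9 and 80.4 CPM in ALDHneg cells. Its log2 fold changes of -0.12 and -0.17 did not pass the test (adjusted p = 0.341 and 0.161).

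SUM159 libraries with the same replicate number deviated together, so the experiment number was also fitted as a block. With the replicate block, 5 of 8 members were called lower in ALDHneg cells, where IDI1 (log2 -0.21, adjusted p = 0.0113), LSS (-0.19, 0.0113) and DHCR7 (-0.17, 0.0425) joined SQLE and INSIG1. The blocked fit called 7.08% of all genes lower there. In ALDHbr cells the blocked count stayed at 2 of 8, beside 7.56% of all genes. HMGCS1, MVD and FDFT1 were called in neither population with the block. IDI1 in ALDHneg cells also passed by DESeq2 (adjusted p = 0.0371) and in the fit of all 24 libraries (adjusted p = 0.0466).

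**Figure D2:**
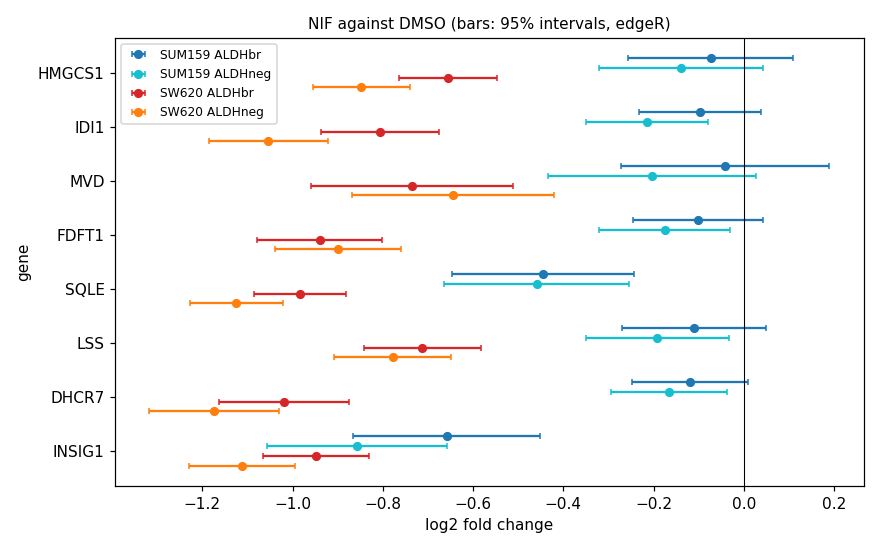
Log2 fold change of each member under NIF against DMSO in the 4 populations, with 95% intervals from the edgeR fit of each line (3 against 3 libraries within a fit of 12). The 8 SW620 points of each population lie at -0.64 or below, and the SUM159 points lie between -0.86 and -0.04.

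The difference between the lines was tested directly, as the SW620 response minus the SUM159 response in a fit of all 24 libraries. In ALDHbr cells 7 of 8 members were called lower, which means a stronger fall in SW620, beside 10.7% of all genes. DHCR7 had the lowest value, -0.90 ± 0.0922 (SE) on the log2 scale (adjusted p = 1.21e-07), and SQLE the highest of the 7, -0.54 ± 0.112 (SE) (adjusted p = 9.29e-04). INSIG1 was the exception at -0.29 ± 0.108 (SE) (interval -0.52 to -0.07, adjusted p = 0.0535, and 0.0179 with the replicate block). In ALDHneg cells 6 of 8 were called lower, beside 10.5% of all genes. DHCR7 again had the lowest value (-1.0004 ± 0.0922 (SE), adjusted p = 1.97e-08). MVD (-0.43 ± 0.157 (SE), interval -0.76 to -0.11, adjusted p = 0.0502) and INSIG1 (-0.25 ± 0.105 (SE), interval -0.47 to -0.03, adjusted p = 0.0946) missed the threshold, and both passed it with the replicate block (adjusted p = 0.0146 and 0.0399). The blocked fit called 8 of 8 members lower in each population, beside 12.6% of all genes in ALDHbr and 12.4% in ALDHneg cells. That fit also blocked the SW620 libraries by number, although their same-numbered deviations correlated above 0.1 in only 1 of 12 pairs. MVD in ALDHneg cells was also called without SUM159 ALDHneg DMSO replicate 2 or 3 or NIF replicate 1 (adjusted p = 0.0429, 0.0401 and 0.0185). INSIG1 was called in ALDHbr cells without SUM159 ALDHbr DMSO replicate 2 or NIF replicate 3 (0.0237 and 0.0469), and in ALDHneg cells without SUM159 ALDHneg NIF replicate 3 (0.0410). The paper lists final drug concentrations by cell line in its supplement, and they were not compared here. Line cannot be told apart from tumor type, or from any difference between the lines in NIF concentration or in experiments.

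The members also started from different levels. On the RPKM scale, which divides by exon length and library size, over all 24 libraries, SQLE stood at 199 ± 1.22 in SW620 ALDHbr DMSO cells and 39.1 ± 4.19 in the SUM159 group of the same kind (SD, n = 3). In SW620 the order of levels was then FDFT1 (74.7 ± 6.04), DHCR7 (52.8 ± 5.09), INSIG1 (38.7 ± 0.632), IDI1 (37.6 ± 2.93), MVD (31.8 ± 4.33), HMGCS1 (29.2 ± 0.584) and LSS (17.9 ± 0.844). INSIG1 and IDI1, IDI1 and MVD, and MVD and HMGCS1 differed by less than the sum of their SDs. In SUM159 SQLE was followed by FDFT1 (15.8 ± 0.617), LSS (14.9 ± 0.765), DHCR7 (14.7 ± 0.769), IDI1 (11.3 ± 0.298), MVD (9.45 ± 0.563) and HMGCS1 (9.40 ± 0.772). INSIG1 was lowest there, at 5.42 ± 0.535. Here FDFT1 and LSS, LSS and DHCR7, and MVD and HMGCS1 differed by less than the sum of their SDs.

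With NIF, the SW620 level stayed above the SUM159 level for 7 of the 8 genes. In ALDHneg cells DHCR7, for instance, stood at 21.1 ± 0.371 RPKM in SW620 under NIF and at 15.4 ± 0.610 RPKM in SUM159 with DMSO. LSS was the exception. In ALDHbr cells it stood at 17.9 ± 0.844 RPKM in SW620 and 14.9 ± 0.765 RPKM in SUM159 with DMSO, and at 10.9 ± 0.759 and 13.8 ± 0.769 RPKM with NIF, so the order of the lines turned. In ALDHneg cells SW620 was already the lower with DMSO, at 16.1 ± 0.106 RPKM against 17.8 ± 0.569 RPKM in SUM159, and at 9.44 ± 0.401 and 15.6 ± 1.67 RPKM with NIF.

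The sorted populations were compared under DMSO. In SUM159, 3 of 8 members were called, beside 23% of all genes. SQLE was higher in ALDHbr cells, at 134 ± 14.3 CPM against 79.6 ± 0.758 (SD, n = 3), a log2 difference of 0.75 ± 0.0949 (SE) (adjusted p = 3.55e-05). INSIG1 was lower in ALDHbr cells, at 18.2 ± 1.80 CPM against 30.5 ± 1.87, a log2 difference of -0.74 ± 0.0935 (SE) (adjusted p = 3.17e-05). LSS was also lower, at 85.1 ± 4.35 CPM against 102 ± 3.63 (log2 -0.26 ± 0.0745 (SE), adjusted p = 0.0186). LSS lost its call without ALDHbr DMSO replicate 1 or 2 or ALDHneg DMSO replicate 3 (adjusted p = 0.0600 to 0.0810), while its log2 difference stayed between -0.30 and -0.23. With the replicate block its adjusted p was 2.38e-04, and the groups did not overlap. The remaining 5 ranged from -0.09 (IDI1) to 0.09 (FDFT1).

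In SW620 the edgeR fit called 0 of 8 members between the populations under DMSO, beside 11.3% of all genes, although 5 of 8 had an unadjusted p under 0.05 and DESeq2 called 1 (IDI1). All 8 differences were above 0, from 0.06 (SQLE) to 0.28 (MVD, 58.2 ± 8.10 CPM in ALDHbr against 47.8 ± 2.31 in ALDHneg cells). IDI1 stood at 130.3 ± 10.4 against 114 ± 3.51 CPM (log2 0.20 ± 0.0603 (SE), adjusted p = 0.0507). Without ALDHbr DMSO replicate 2, a library with low MVD and FDFT1 levels in its group, 4 of 8 members were called, all higher in ALDHbr cells (FDFT1, IDI1, LSS and MVD), but 38.8% of all genes were called in that fit too. Without ALDHbr DMSO replicate 1, 1 of 8 was called (DHCR7), beside 5.03% of all genes.

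**Figure D3:**
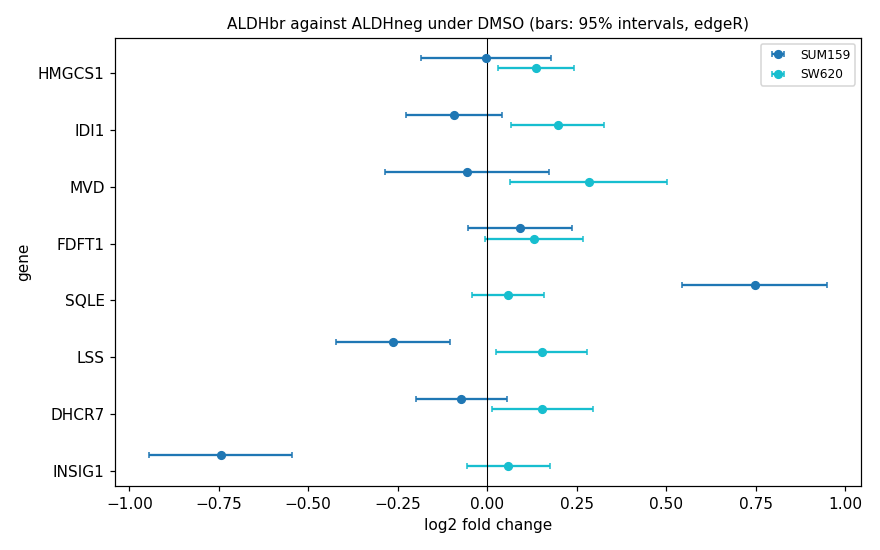
Log2 difference of each member between ALDHbr and ALDHneg cells under DMSO in each line, with 95% intervals from edgeR (3 against 3 libraries within a fit of 12). In SUM159 the SQLE point lies at 0.75 and the INSIG1 point at -0.74, and the SW620 points lie between 0.06 and 0.28.

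Whether NIF acted differently on the populations was tested as the response of ALDHbr minus that of ALDHneg cells. In SUM159 edgeR called 0 of 8 members, with 0 of 8 at an unadjusted p under 0.05 and 0 of 8 by DESeq2, and 0% of all genes were called. The differences ran from 0.01 (SQLE, interval -0.27 to 0.30) to 0.20 (INSIG1, interval -0.09 to 0.49). In SW620 edgeR also called 0 of 8, with 2 of 8 (HMGCS1 and IDI1) at an unadjusted p under 0.05 and 0 by DESeq2, beside 0.00717% of all genes. IDI1 had the highest value, 0.25 with an interval of 0.06 to 0.43, and MVD the lowest, -0.09 with an interval of -0.41 to 0.22.

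The levels of the members varied together closely in SW620 and less so in SUM159. Over the 12 libraries of SW620, the 28 pairs of members had correlations of log2 CPM between 0.91 and 0.99 (median 0.98). Over the 12 SUM159 libraries they lay between -0.41 and 0.77 (median 0.37). The libraries of a line share the treatment and the sort, so these values describe the libraries and carry no test. The genes outside the set whose log2 CPM, centred per line, followed the members' mean most closely over the 24 libraries were sought among 12780 genes. They included ST3GAL2 (r = 0.97), BIRC5 (0.97), ZWINT (0.97), NUDT16 (0.96), TNFAIP8L1 (0.96), NADSYN1 (0.95), ASF1B (0.95), BORA (0.95) and ACAT2 (0.95). Within SW620 alone r lay between 0.96 and 0.99 over 12 libraries. Within SUM159 it ran from 0.31 (ACAT2) to 0.94 (TNFAIP8L1), with 0.60 for ZWINT. Of these genes, ACAT2 belongs to cholesterol synthesis, and BIRC5, ZWINT and BORA are known for roles in mitosis. Whether the share of dividing cells had a part in the members' levels was not tested.

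The other 15 enzymes of the route were examined as a list. For reading this and the lists that follow, 21.4% of all genes tested were called higher under NIF in SW620 ALDHbr and 22.3% in SW620 ALDHneg cells, and 0.936% and 1.1% in the SUM159 populations. In SW620, 13 of 15 were called lower in ALDHbr cells and 14 of 15 in ALDHneg cells, and 0 were called higher in either, with medians of -0.65 and -0.63. ACAT2, which makes the acetoacetyl-CoA used by HMGCS1, had the lowest called values (log2 -1.19 ± 0.0801 and -1.20 ± 0.0804, SE). The called enzymes with the smallest falls were TM7SF2, a sterol reductase, in ALDHbr cells (-0.22 ± 0.0838) and GGPS1, which makes geranylgeranyl diphosphate, in ALDHneg cells (-0.20 ± 0.0671). In SUM159, 2 of 15 were called lower in each population and 0 higher, with medians of -0.14 and -0.11. MSMO1, a sterol demethylase, was called in both populations (-0.37 ± 0.0886 in ALDHbr and -0.38 ± 0.0873 in ALDHneg cells). SC5D, a sterol desaturase, was called in ALDHneg cells (-0.29 ± 0.0649).

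Uptake and other SREBP2 targets went less evenly. In SW620, 6 of 9 were called lower in both populations, and 1 was called higher in ALDHbr and 2 in ALDHneg cells. NPC1, which exports cholesterol from lysosomes, had the highest values (0.43 ± 0.0939 and 0.58 ± 0.0930). In SUM159, 1 of 8 tested was called lower in each population, while 2 were called higher in ALDHbr cells and 0 in ALDHneg cells. ALDOC, a glycolytic aldolase, had the highest value in ALDHbr cells (0.56 ± 0.141).

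Among the regulators of SREBP, SREBF2, which encodes SREBP2 itself, was called lower in all 4 populations. Its log2 fold changes were -0.40 ± 0.0869 (adjusted p = 0.0201) in SUM159 ALDHbr and -0.39 ± 0.0868 (0.0233) in SUM159 ALDHneg cells. In SW620 they were -0.47 ± 0.0646 (4.87e-05) in ALDHbr and -0.68 ± 0.0646 (1.10e-06) in ALDHneg cells. SREBF1, the gene of SREBP1, was called lower in SW620 (-0.68 ± 0.0621 and -0.55 ± 0.0618) and had values of 0.01 ± 0.0627 and -0.02 ± 0.0617 in SUM159. SCAP was called in none of the 4, with values from -0.06 to 0.04. The proteases that release SREBP are encoded by MBTPS1 and MBTPS2. MBTPS1 was called higher in both SW620 populations (0.26 ± 0.0451 and 0.22 ± 0.0450) and MBTPS2 in ALDHbr cells (0.17 ± 0.0618, against 0.15 ± 0.0601 and adjusted p = 0.0519 in ALDHneg cells). INSIG2, the other INSIG gene, was called higher in SW620 ALDHbr cells (0.20 ± 0.0732) and had 0.10 ± 0.0729 in ALDHneg cells. RNF139, a ubiquitin ligase of the endoplasmic reticulum, was called higher in both (0.30 ± 0.0475 and 0.32 ± 0.0473). In SUM159 SCAP, MBTPS1, MBTPS2, INSIG2 and RNF139 were not called, with values between -0.16 (MBTPS2) and 0.24 (INSIG2).

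Neighbouring routes gave other counts. Of the SREBP1 targets in fatty acid synthesis, 7 of 10 tested were called lower and 1 higher in each SW620 population. FADS1, a fatty acid desaturase, was lowest (-0.99 ± 0.340 and -1.79 ± 0.347), and ACSS2, which makes acetyl-CoA from acetate, was the 1 called higher (0.50 ± 0.0774 and 0.74 ± 0.0761). In SUM159 FADS1 was the only called gene of the 12 tested, in ALDHbr cells (-0.32 ± 0.0639). LXR is the sensor of excess sterol, and its list held LXR genes as well as LXR targets and genes of sterol efflux. Of this list, 3 of 8 were called higher in SW620 ALDHbr and 4 of 8 in ALDHneg cells. These counts stand beside the 21.4% and 22.3% of all genes called higher, and 0 of 8 were called lower. ABCG1, a sterol exporter, rose by 1.97 ± 0.0809 and 2.35 ± 0.0774, and the smallest called rises were those of NR1H2, an LXR gene, in ALDHbr (0.25 ± 0.0747) and PLTP, a phospholipid transfer protein, in ALDHneg cells (0.47 ± 0.106). In SUM159 0 of 8 genes of the LXR list were called by edgeR, with 2 at an unadjusted p under 0.05 in ALDHbr and 1 in ALDHneg cells. Genes that use isoprenoids were called higher for 3 and lower for 1 of 10 in SW620 ALDHbr cells, and higher for 3 and lower for 2 in ALDHneg cells, which is near the shares of all genes called in each direction. DHDDS, of dolichol synthesis, was highest (0.42 ± 0.0519 and 0.43 ± 0.0517) and COQ2, of coenzyme Q synthesis, lowest (-0.34 ± 0.0641 and -0.33 ± 0.0640). In SUM159 0 of 10 were called, with 0 and 1 at an unadjusted p under 0.05.

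**Figure D4:**
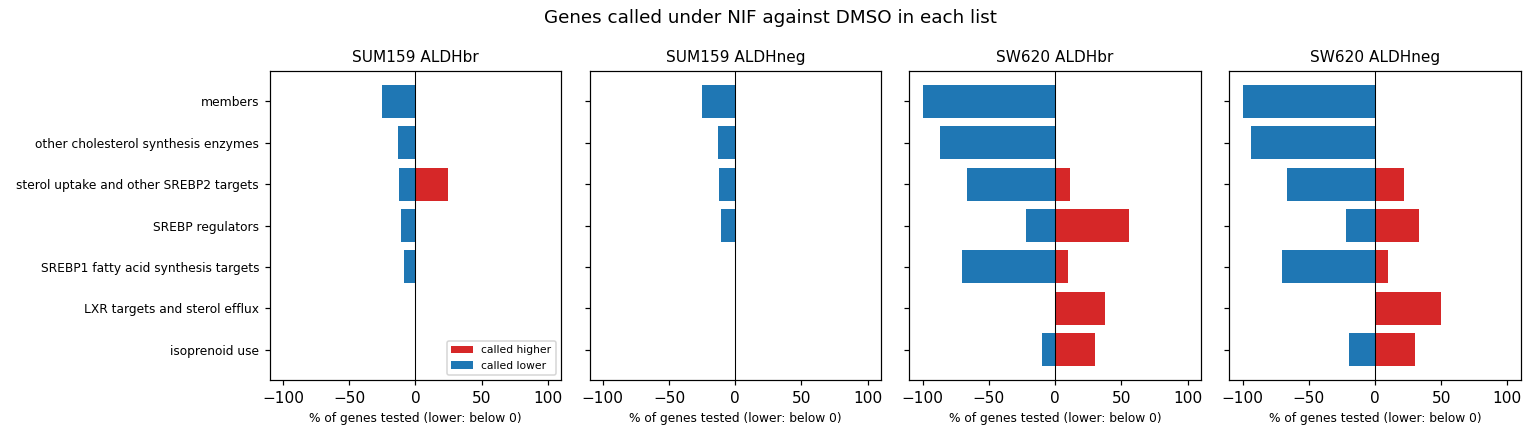
Share of the tested genes of each list called higher (red, above 0) or lower (blue, below 0) under NIF in each population, in percent. Members were called lower for 8 of 8 in both SW620 panels and for 2 of 8 in both SUM159 panels.

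Markers of the cell lines and of the sort moved under NIF too. In SW620, 3 colon epithelial markers of 10 were called higher and 4 lower in ALDHbr cells, and 3 higher and 3 lower in ALDHneg cells. Of 7 mesenchymal markers tested there, 3 were called higher and 2 lower in each population. In SUM159 edgeR called 0 of 10 mesenchymal markers in each population, with 2 in ALDHbr and 3 in ALDHneg cells at an unadjusted p under 0.05, and 0 of 2 colon epithelial markers, with 0 at that level. ALDH1A1 and ALDH1A3 were called lower in both SW620 populations (ALDH1A1 at -0.46 ± 0.0475 and -0.71 ± 0.0477) and in neither of SUM159. Cells were sorted after the exposure, and the part of these changes in the members' values was not tested.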

How the data were processed

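RNA of sorted SUM159 and SW620 cells was prepared with a stranded total RNA kit. The table deposited by the authors holds raw read counts, without normalization, for 28307 genes. Per the labels' processing notes FastQC, STAR and GRCh38 were used. The counting tool, its strand setting and the annotation are not given in the sources used here, so overlapping genes are uncertain. The 8 members, the gene lists and the tests were chosen with earlier results of these data known.

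Tests used edgeR 4.0.16 under R 4.3.3 (filterByExpr by group, TMM, glmQLFit and glmQLFTest, Benjamini-Hochberg over all genes tested, threshold 0.05). SUM159 and SW620 had separate fits of 12 libraries, and differences between lines were fitted on all 24. CPM uses TMM-adjusted library sizes, and log2 CPM a prior count of 2. RPKM was computed from the union of annotated exons (GENCODE lifted to GRCh37). Alternatives were DESeq2 1.42.0, RLE and library-size scaling, no filter, other sample sets, a replicate block and leaving out each library. The scripts were tested on simulated data.

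Named were the members, the SREBP regulators, the called genes with the highest and lowest log2 fold change of each list in each comparison of NIF with DMSO, and the 10 genes with the highest correlation to the members. Lists of mesenchymal and colon epithelial markers, ALDH1A1 and ALDH1A3 checked the labels. Some genes that this rule names are not reported here. ALDH1A3 was named after its values were seen. The replicate number was taken to mark an experiment. In SUM159, 12 of 12 correlations of same-numbered deviations exceeded 0.1 (0.18 to 0.45), so the numbers pair the SUM159 libraries. In SW620 1 of 12 did (-0.28 to 0.21), so pairing by number was not borne out there. Within a group no library repeated another, since the 24 pairs of replicates had a chi-square of 1.95 to 43.1 for each gene on average. Libraries of different groups were not compared in this way. Total counts per library of 30253187 to 43127948 set the precision. Genomic positions and promoters are from RefSeq on GRCh38.p14.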

Additional observations from a re-analysis of the deposited data

Results flagged for a closer look

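The response to NIF differed between the lines by the test of the difference itself (edgeR, SW620 minus SUM159, log2 scale) for 7 members in ALDHbr cells. The values were -0.58 for HMGCS1, -0.71 for IDI1, -0.70 for MVD, -0.84 for FDFT1, -0.54 for SQLE, -0.60 for LSS and -0.90 for DHCR7. In ALDHneg cells it differed for 6 members, at -0.70 for HMGCS1, -0.83 for IDI1, -0.72 for FDFT1, -0.66 for SQLE, -0.58 for LSS and -1.0004 for DHCR7. Adjusted p ran from 1.97e-08 to 0.00211. In each case the SW620 value was the lower.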

How the results depend on the processing

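Of 1184 values of single members under the alternatives, 1132 kept direction and side of the threshold, 10 lost and 27 gained a call, and 15 changed sign, all of them values that were not called. The SW620 responses to NIF kept 8 of 8 calls in both populations under every alternative run. With the replicate block the SUM159 ALDHneg count rose from 2 to 5, and in SUM159 ALDHbr cells it stayed at 2. The block also took the line difference to 8 of 8 calls in both populations (with 12.6% and 12.4% of all genes called lower, against 10.7% and 10.5%) and changed no other count of members. Leaving out 1 library gave 1 to 2 calls in each SUM159 population under NIF and 0 to 4 for the SW620 populations under DMSO, where the 4 came without ALDHbr DMSO replicate 2, a fit that called 38.8% of all genes. With all libraries that count was 1 by DESeq2 and 1 in the fit of all 24 libraries, against 0. In SUM159, the log2 difference of HMGCS1 between populations (-0.00384) was 0.00285 by DESeq2, 0.00595 without the filter and 9.24e-05 with RLE scaling. With 1 library left out it ran from -0.0543 to 0.0597. HMGCS1 under NIF in SUM159 ALDHbr cells ran from -0.136 to 0.00182, and MVD there from -0.0869 to 0.0333. The SQLE difference between the responses of the SUM159 populations ran from -0.0656 to 0.110, and that of FDFT1 in SW620 from -0.102 to 0.00383. The causes were not tested. No scaling moved the median of all genes by over 0.1.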
